A study of Prunus avium with 21 samples.

Results

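Gibberellin 2-beta-dioxygenases (gibberellin 2-oxidases, GA2ox) are enzymes that add a hydroxyl group to gibberellins and so inactivate them. In *Arabidopsis*, GA2OX1 acts on active gibberellins and their late precursors, whereas GA2OX8 belongs to a class that acts on earlier precursors with a longer carbon skeleton. The active forms are made in the last step by gibberellin 3-beta-dioxygenases, gibberellins promote growth, and their synthesis and inactivation are among the processes studied in bud dormancy of woody plants.

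The genes described here are 2 assembled genes of sweet cherry, TR11635|c0_g3 and TR12555|c3_g2, whose leading transcripts TR11635|c0_g3_i1 (gibberellin 2-beta-dioxygenase 1-like) and TR12555|c3_g2_i16 (gibberellin 2-beta-dioxygenase 8-like) were chosen by their opposite log2 fold changes (log2 FC) between hydrogen cyanamide-treated and water-treated buds 1 day after treatment (dat). With all other isoforms of the same assembled genes they make 24 of the 112043 transcripts in the table, 3 isoforms of TR11635|c0_g3 and 21 of TR12555|c3_g2. The rule took isoforms by their assembled gene whatever their own levels were. The study's tables hold a gibberellin 2-beta-dioxygenase name for all 3 isoforms of TR11635|c0_g3 and for i3, i4, i16 and i17 of TR12555|c3_g2, and the remaining isoforms are called here only by their number. These names rest on the study's protein matches and were not checked further.

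Flower buds of 3 trees of the cultivar ‘Burlat’, numbered 4, 5 and 6, gave 21 libraries in 7 groups of 3. Cut branches were sprayed with 2% Dormex, whose active compound hydrogen cyanamide releases bud dormancy, or with deionized water, were kept warm under constant light and were sampled at 1, 3, and 6 dat. A further group was sampled untreated at day 0, in the evening, whereas all later groups were sampled in the morning. The buds of 1 whole branch, at mixed stages of opening, were pooled for each library, so tissues cannot be separated, and fewer cells of a type and less RNA per cell cannot be told apart. Levels are in FPKM, fragments scaled by transcript length and library size. They summed to between 671152 and 760090 per library. Each library correlated best with another of its own group (21 of 21), and the depth behind single values is unknown because the table holds no counts.

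The opposite responses behind the choice were known from the comparison of hydrogen cyanamide with water at 1 dat. The values of this comparison are given as a description. TR11635|c0_g3_i1 stood at 119.9, 121.6 and 161.7 FPKM in treated buds of trees 4, 5 and 6, against 1.89, 2.03 and 1.46 FPKM in water-treated buds. This was a log2 FC of 5.87 on the log2(FPKM + 0.5) scale used for every log2 FC and log2 ratio here. TR12555|c3_g2_i16 stood at 0.565, 1.36 and 0.370 FPKM in treated buds, against 15.995, 13.7 and 29.3 FPKM in water-treated buds (log2 FC -3.99). A transcript is called where its adjusted p over all transcripts tested is at most 0.05 and its log2 FC at least 1 in either direction, and 3.94% of all transcripts tested at 1 dat were called. The study used fewer replicates at 1 dat than at the other days and did not name them. With trees 5 and 6 alone, a pair taken as an example, the log2 FC was 5.98 for TR11635|c0_g3_i1 and -4.01 for TR12555|c3_g2_i16, and without any 1 of the 6 libraries it was 5.73 to 5.95 for i1 and -4.31 to -3.67 for i16. Of the 24 isoforms 15 were above the filter on low levels at 1 dat, with positive log2 FC for all 3 of TR11635|c0_g3 and for 2 of TR12555|c3_g2 and negative log2 FC for 10 of TR12555|c3_g2. The summed level of 3 green tissue markers, photosynthesis transcripts, was 42.8 to 47.6 FPKM in treated and 6.603 to 9.89 FPKM in water-treated buds, with 2 of the 3 averaging at least 0.5 FPKM over the series. These markers were picked by description from the study's tables, whose transcripts the study chose on the same samples. Their difference between treatments is therefore not independent evidence, and their part in the result was not tested.

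Over the whole series, the GA2ox 1-like transcript i1 was highest in treated buds at 1 dat (134 ± 23.7 FPKM, SD, n = 3). Next came treated buds at 6 dat (65.7 ± 73.2 FPKM), water-treated buds at 6 dat (56.3 ± 19.5 FPKM) and treated buds at 3 dat (49.2 ± 39.0 FPKM). The ranges of these 4 groups overlapped from one to the next. Water-treated buds at 3 dat (8.57 ± 10.4 FPKM) did not overlap treated buds of the same day, but their highest library (20.4 FPKM) was above the lowest of treated buds at 6 dat (15.0 FPKM). They overlapped untreated buds (4.44 ± 1.44 FPKM). Water-treated buds at 1 dat had the lowest mean (1.79 ± 0.295 FPKM), but the lowest single library was one of water-treated buds at 3 dat (0.730 FPKM). Treated buds thus had their highest mean at the first time point and water-treated buds at the last, with ranges of 119.9 to 161.7 FPKM in treated buds at 1 dat and 35.4 to 74.1 FPKM in water-treated buds at 6 dat that did not overlap.

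**Figure D1:**
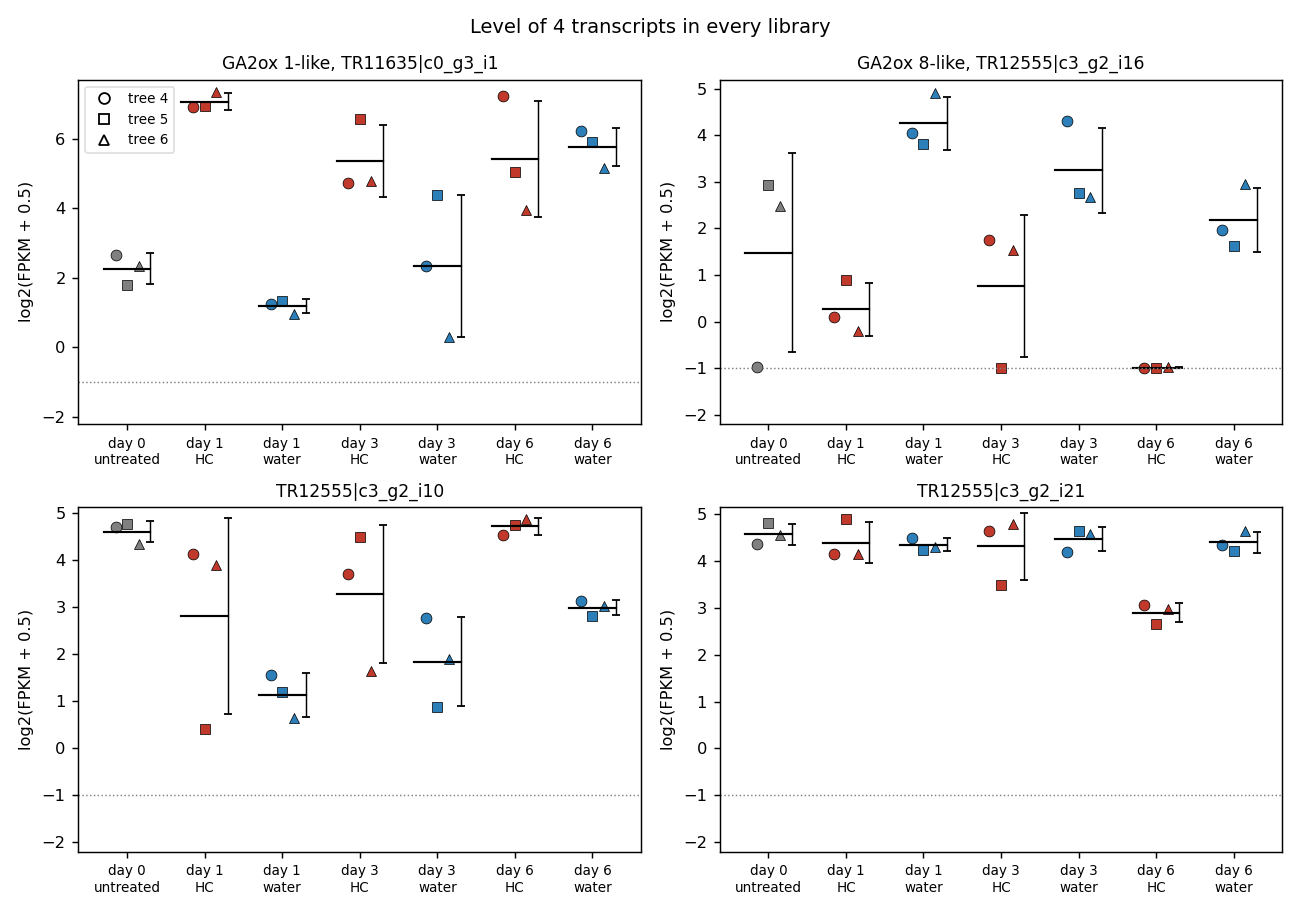
Levels of 4 transcripts on a log2(FPKM + 0.5) axis in untreated buds at day 0 and in hydrogen cyanamide-treated (HC, red) and water-treated (blue) buds at days 1, 3 and 6. Symbols mark trees 4, 5 and 6, bars the mean and SD of the 3 log values, and the dotted line 0 FPKM; TR12555|c3_g2_i16 lies on that line in all 3 treated libraries at 6 dat, where TR12555|c3_g2_i10 lies above all 3 water-treated libraries.

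The rule for the pair names opposite responses without a time point, which were known from 1 dat, and the remaining results of these data were also known when it was made, so the tests at 3 and 6 dat may not be independent of the choice. At 3 dat TR11635|c0_g3_i1 was at 26.1, 94.3 and 27.2 FPKM in treated buds of trees 4, 5 and 6, against 4.61, 20.4 and 0.730 FPKM in water-treated buds. The groups did not overlap, and tree 5 was the highest of its group in both treatments. Within trees the log2 ratios were 2.38, 2.18 and 4.49. The log2 FC of 3.02 (0.97 SE, 95% interval 0.75 to 5.29) missed the threshold over all transcripts (limma adjusted p = 0.136). It passed with the tree as a replicate block (adjusted p = 0.0424), with all 21 libraries in 1 fit (adjusted p = 0.0234), and without the water-treated library of tree 5 (log2 FC 4.04, adjusted p = 0.0494). The summed green tissue markers were again higher in treated buds, at 17.7 to 29.4 FPKM, than in water-treated buds, at 5.11 to 7.27 FPKM, and their part was not tested.

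At 6 dat the same transcript was at 149.5, 32.5 and 15.0 FPKM in treated buds and 74.1, 59.5 and 35.4 FPKM in water-treated buds. The range of treated buds enclosed that of water-treated buds, and in both treatments tree 4 was highest and tree 6 lowest. The log2 ratio was 1.01 in tree 4, -0.86 in tree 5 and -1.21 in tree 6. The log2 FC of -0.36 (0.74 SE, 95% interval -2.09 to 1.38) was not past the threshold (limma adjusted p = 0.858) and turned to 0.37 without the treated library of tree 6. The treatment effect differed between 6 and 3 dat by -3.37 (1.39 SE, 95% interval -6.41 to -0.34), and this difference did not pass either (limma adjusted p = 0.472). At 6 dat the green tissue markers summed to 8.40 to 15.0 FPKM in treated and 7.14 to 10.9 FPKM in water-treated buds.

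Both smaller isoforms of TR11635|c0_g3 had log2 FC of the same signs as i1. At 1 dat i2 was at 3.54, 4.65 and 3.601 FPKM in treated and 0.00312, 0.000483 and 0.387 FPKM in water-treated buds, and i3 at 3.03, 0.970 and 3.55 FPKM in treated and 0.00820, 0.0594 and 0.0484 FPKM in water-treated buds. These groups did not overlap. Isoform i2 was at 0.944, 1.58 and 1.75 FPKM in treated buds at 3 dat and at 1.45e-06, 0.960 and 0.428 FPKM in water-treated buds (log2 FC 1.11 ± 0.48 SE). Isoform i3 was at 0.627, 5.23 and 1.22 FPKM in treated and 0.0229, 0.405 and 0.00704 FPKM in water-treated buds (log2 FC 1.84 ± 0.64 SE). The groups of i2 overlapped and those of i3 did not, and neither isoform passed the test (adjusted p = 0.251 for i2 and 0.160 for i3 from limma). At 6 dat i2 was at 9.13, 3.34 and 0.0524 FPKM in treated and 5.05, 6.51 and 3.17 FPKM in water-treated buds (log2 FC -0.94 ± 0.93 SE). Isoform i3 was then at 2.40, 2.62 and 0 FPKM in treated and 3.91, 2.38 and 1.29 FPKM in water-treated buds (log2 FC -0.78 ± 0.74 SE). As for i1, tree 6 was the lowest in each treatment for both isoforms. Over the 21 libraries the levels of i2 and i3 correlated with that of i1 at r = 0.84 and 0.88 (rho = 0.86 and 0.83), with the groups and the division of shared reads behind all of these points.

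TR12555|c3_g2_i16 kept its direction at both later time points. At 3 dat it was at 2.86, 0.000503 and 2.42 FPKM in treated buds, against 19.2, 6.27 and 5.93 FPKM in water-treated buds. The groups did not overlap, and the treated library of tree 5 was nearly empty of it. The log2 FC of -2.48 (0.78 SE, 95% interval -4.30 to -0.67) missed the threshold (limma adjusted p = 0.126), and without single libraries it was between -2.97 and -1.60, with -1.60 without the treated library of tree 5. Even lower levels were found at 6 dat, with 0.00143, 0.00237 and 0.00870 FPKM in treated buds against 3.41, 2.59 and 7.20 FPKM in water-treated buds. All 3 treated libraries were thus close to 0, and the log2 FC of -3.17 (0.43 SE, 95% interval -4.17 to -2.17) understates the ratio because of the 0.5 FPKM added to each value. At 6 dat i16 passed the filter on low levels only through water-treated buds, and this fall was called (limma adjusted p = 0.0189). It was no longer called with the replicate block (adjusted p = 0.0551) or without any filter on low levels (adjusted p = 0.0735). Leaving out single libraries gave log2 FC of -3.44 to -2.78 and adjusted p of 0.0443 to 0.0872, and 5 of 6 such fits lost the call, all but that without the treated library of tree 6.

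Averaged over 3 and 6 dat, TR12555|c3_g2_i16 fell by 2.83 on the log2 scale in treated buds (0.48 SE, 95% interval -3.88 to -1.77, limma adjusted p = 0.00313), with lower levels in treated buds of every tree at both time points. The call held without any 1 of the 12 libraries (adjusted p 0.00222 to 0.00874) and with the replicate block (adjusted p = 0.00322). The effect at 6 dat differed from that at 3 dat by -0.69 (0.96 SE, 95% interval -2.79 to 1.42, limma adjusted p = 0.885), and by -1.57 to -0.19 without single libraries. Over the same average TR11635|c0_g3_i1 had a log2 FC of 1.33 (0.69 SE, 95% interval -0.19 to 2.85, limma adjusted p = 0.258), or 0.82 to 1.84 without single libraries. The opposite signs seen at 1 dat therefore recurred at 3 dat, without a call for either transcript, whereas at 6 dat both log2 FC were negative.

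Across groups, i16 was highest in water-treated buds at 1 dat (19.7 ± 8.46 FPKM, SD, n = 3). Lower means followed in water-treated buds at 3 dat (10.5 ± 7.55 FPKM) and 6 dat (4.40 ± 2.46 FPKM), untreated buds (4.09 ± 3.68 FPKM), and treated buds at 3 dat (1.76 ± 1.54 FPKM) and 1 dat (0.765 ± 0.524 FPKM). Each of these groups overlapped the next. Treated buds at 6 dat had the lowest mean (0.00417 ± 0.00396 FPKM), but single libraries of untreated buds (tree 4, 0.00879 FPKM) and of treated buds at 3 dat (tree 5) were about as low. Over the 21 libraries the correlation of i16 with i1 of TR11635|c0_g3 was r = -0.66 (rho = -0.68). It is a description, since the pair was chosen for opposite responses in these data.

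**Figure D2:**
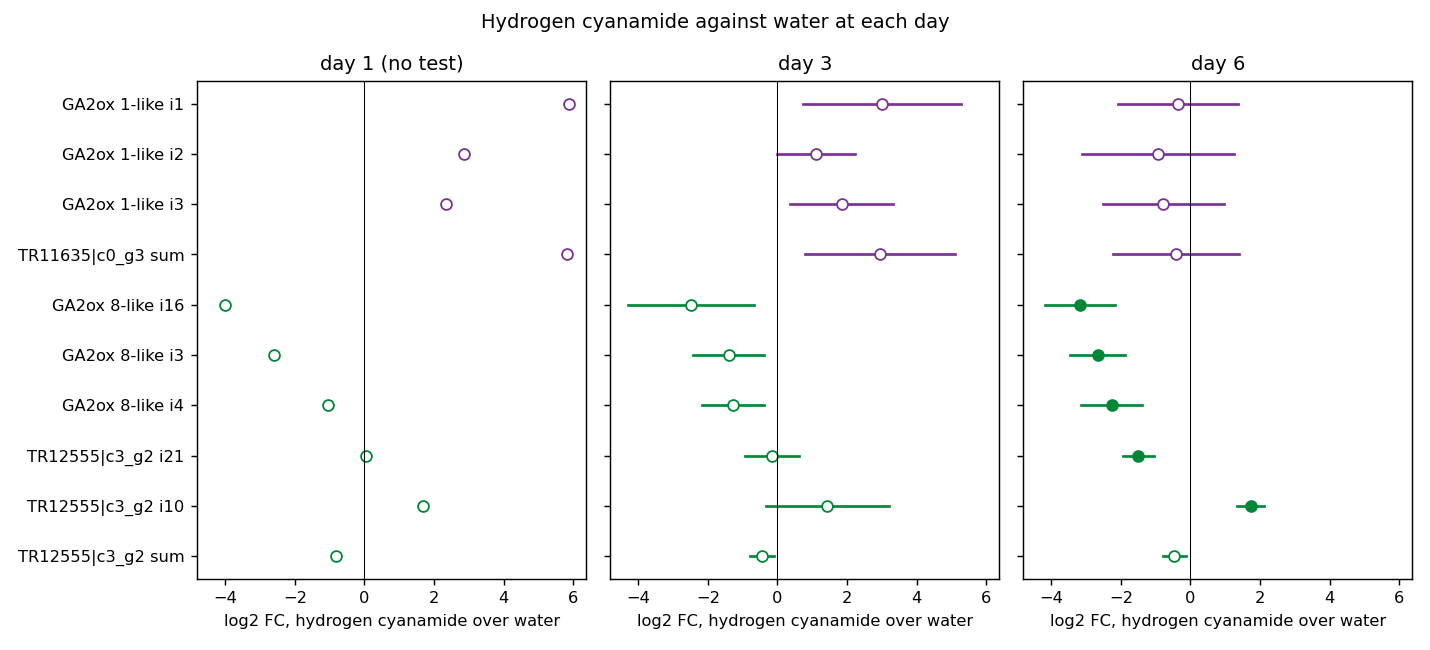
Log2 FC of hydrogen cyanamide over water on the log2(FPKM + 0.5) scale at days 1, 3 and 6 for isoforms of TR11635|c0_g3 (purple) and TR12555|c3_g2 (green) and for the sum of all isoforms of each. Lines are 95% intervals (none at day 1, from which the opposite responses of the pair were known), and filled points passed the test. At day 6 these are i16, i3, i4 and i21 on the negative side and i10 at 1.73 on the positive side.

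The 21 isoforms of TR12555|c3_g2 did not move as one. Of these, 11 had a mean of at least 0.5 FPKM over all libraries and the other 10 had means of 0.00606 to 0.484 FPKM, with no single value above 2.69 FPKM. Counting both assembled genes, 14 of the 24 isoforms passed the filter on low levels at 3 dat and limma called none. Of all transcripts 3.01% were called. Of the 14 isoforms 5 had an unadjusted limma p under 0.05, as did 12824 of all 63205 transcripts tested. At 6 dat 9 of the 24 passed the filter, of which 4 fell and 1 rose, with 1.41% of all transcripts called. For the average of both time points 11 passed the filter, of which 3 fell and 1 rose, with 5.23% called in all. No isoform had a called difference between 6 and 3 dat in limma, at a background of 0.0111%. Of the 11 isoforms tested 4 had an unadjusted limma p under 0.05, as did 5932 of all 62942 transcripts tested. An isoform can pass the filter through the group in which it is high, so these counts do not extend to the isoforms left out. All calls at 6 dat and in the average were of isoforms of TR12555|c3_g2. Reads shared by these isoforms were divided by estimation, so the called isoforms are not independent.

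Isoforms i3 and i4, both named gibberellin 2-beta-dioxygenase 8-like, went with i16. At 3 dat i3 was at 3.52, 1.33 and 6.24 FPKM in treated and 8.91, 8.19 and 10.8 FPKM in water-treated buds (log2 FC -1.41 ± 0.44 SE, limma adjusted p = 0.128). By 6 dat i3 was at 0.217, 0.0982 and 0.280 FPKM in treated and 4.56, 3.07 and 4.29 FPKM in water-treated buds (log2 FC -2.67 ± 0.34 SE, limma adjusted p = 0.0153). The groups did not overlap at either time point, and at 6 dat i3 also passed the filter only through water-treated buds.

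Isoform i4 was at 6.91, 2.12 and 5.32 FPKM in treated buds at 3 dat and at 9.68, 10.9 and 13.4 FPKM in water-treated buds (log2 FC -1.28 ± 0.38 SE, limma adjusted p = 0.110). By 6 dat i4 was at 0.669, 1.42 and 2.28 FPKM in treated and 9.94, 6.09 and 9.64 FPKM in water-treated buds (log2 FC -2.27 ± 0.38 SE, limma adjusted p = 0.0345). These groups did not overlap either. In the average of both time points i3 fell by 2.04 (adjusted p = 0.000919) and i4 by 1.77 (limma adjusted p = 0.00223). At 6 dat alone neither call held with the replicate block (adjusted p = 0.0533 for i3 and 0.0762 for i4), that of i4 was lost without a filter (adjusted p = 0.110), and they were lost in 4 fits of 6 without 1 library for i3 (all but those lacking tree 4 or tree 6 of the treated buds) and in 5 of 6 for i4 (all but that without the treated library of tree 6). At 1 dat i3 was at 0.896, 6.21 and 0.848 FPKM in treated and 13.2, 13.0 and 14.9 FPKM in water-treated buds, and i4 at 5.81, 5.56 and 6.12 FPKM in treated and 8.69, 15.9 and 14.7 FPKM in water-treated buds.

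Isoform i10, for which no name is held, went the other way at 6 dat. It was then at 22.5, 26.5 and 28.9 FPKM in treated buds, against 8.26, 6.54 and 7.65 FPKM in water-treated buds. The groups lay far apart relative to their spread, and i10 was called higher in treated buds (log2 FC 1.73 ± 0.17 SE, 95% interval 1.33 to 2.13, limma adjusted p = 0.00717), in 3 of 3 trees. The call held without any 1 library (adjusted p 0.0224 to 0.0406) and with the replicate block (adjusted p = 0.0370), but not in 1 fit of all 21 libraries (adjusted p = 0.200). At 3 dat i10 was at 12.5, 21.9 and 2.62 FPKM in treated and 6.27, 1.33 and 3.20 FPKM in water-treated buds, and these groups overlapped (log2 FC 1.44 ± 0.76 SE, limma adjusted p = 0.344). At 1 dat it was at 16.98, 0.828 and 14.4 FPKM in treated and 2.44, 1.80 and 1.06 FPKM in water-treated buds.

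In untreated buds i10 was at 25.4, 26.7 and 19.9 FPKM, a range that overlapped that of treated buds at 6 dat. Water-treated buds were below that start at 3 dat (log2 FC -2.76 ± 0.44 SE, limma adjusted p = 0.0122) and at 6 dat (log2 FC -1.61 ± 0.18 SE, limma adjusted p = 0.00119). The call at 3 dat was lost without the water-treated library of tree 6 (adjusted p = 0.0506) and without a filter (adjusted p = 0.0601), and that at 6 dat in 1 fit of all 21 libraries (adjusted p = 0.137). For treated buds the log2 FC against day 0 was -1.33 ± 0.64 SE at 3 dat (adjusted p = 0.216) and 0.12 ± 0.17 SE at 6 dat (95% interval -0.28 to 0.51, limma adjusted p = 0.672). The average difference between treated and water-treated buds over 3 and 6 dat was called for i10 (log2 FC 1.58 ± 0.43 SE, limma adjusted p = 0.0346), but 10 of 12 fits without 1 library lost that call (adjusted p up to 0.0789), as did dropping the filter (adjusted p = 0.0821) and 1 fit of all 21 libraries (adjusted p = 0.0593). Only the fits lacking the treated library of tree 6 or the water-treated library of tree 4 at 3 dat kept it.

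Isoform i21, also without a name, had the highest mean level of the 21 (19.2 FPKM). It was at 17.05 to 29.2 FPKM in 17 of the 21 libraries and at 10.7 FPKM in the treated library of tree 5 at 3 dat. At 6 dat it was at 7.78, 5.82 and 7.32 FPKM in treated buds, against 19.6, 18.0 and 24.3 FPKM in water-treated buds. The treated libraries were below all 18 others, and the fall was called (log2 FC -1.498 ± 0.19 SE, limma adjusted p = 0.0160). It held with the replicate block (adjusted p = 0.0434) but in only 2 of 6 fits without 1 library, those lacking tree 4 or tree 6 of the treated buds (adjusted p 0.0362 to 0.0812 over all 6), and not without a filter (adjusted p = 0.0543). At 3 dat the log2 FC was -0.16 (0.34 SE, limma adjusted p = 0.846).

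The other isoforms with a mean of at least 0.5 FPKM of TR12555|c3_g2 (i1, i8, i9, i11, i15 and i17) had means of 0.564 to 1.79 FPKM. The highest of them, i11, was at 0.371, 0.235 and 0.585 FPKM in treated buds at 6 dat and at 1.95, 1.22 and 1.51 FPKM in water-treated buds, groups that did not overlap (log2 FC -1.20 ± 0.36 SE, limma adjusted p = 0.156). The highest value of i1, i8, i9 and i15 in any library was 2.67 FPKM, and their means at 6 dat were 0.175, 0.187, 0.0924 and 0.0289 FPKM in treated and 0.141, 0.546, 0.434 and 0.473 FPKM in water-treated buds. Isoform i17, named gibberellin 2-beta-dioxygenase 8-like, was at 0.0806, 0.0482 and 0.0169 FPKM in treated and 0.438, 1.70 and 0.315 FPKM in water-treated buds at 3 dat. By 6 dat i17 was at 0.00308, 0.00293 and 0.0148 FPKM in treated and 0.292, 0.149 and 0.936 FPKM in water-treated buds. The groups did not overlap at either time point, but the levels were below the filter and were not tested.

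**Figure D3:**
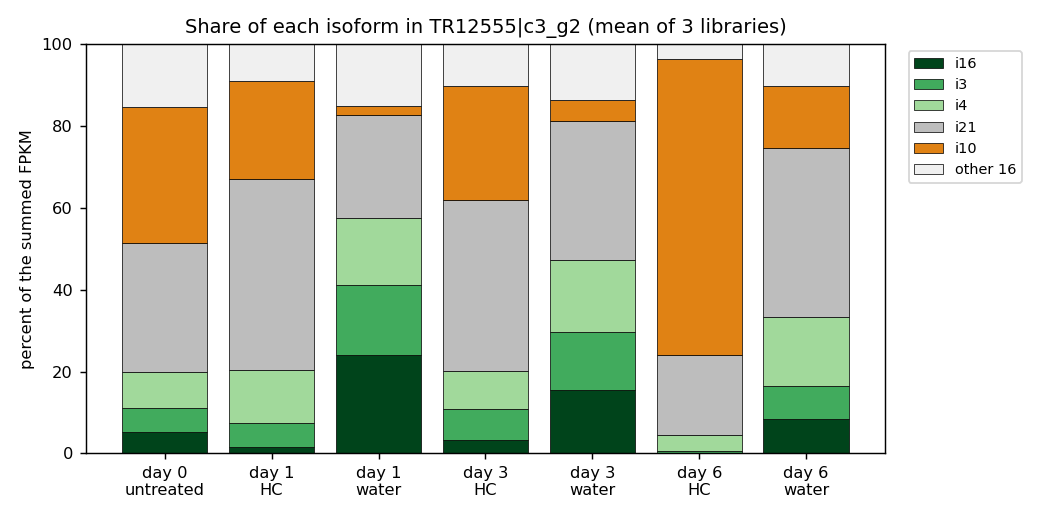
Mean share of each isoform in the summed FPKM of TR12555|c3_g2, in percent, for untreated buds and for hydrogen cyanamide-treated (HC) and water-treated buds at days 1, 3 and 6 (3 libraries each). Isoform i10 made up 72.3% of the sum in treated buds at 6 dat and 15.1% in water-treated buds, while i16, i3 and i4 together made up 4.51% in treated and 33.4% in water-treated buds at 6 dat.

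As shares of the summed level of TR12555|c3_g2, i16, i3 and i4 together held 20.4 ± 7.17% in treated and 57.5 ± 6.24% in water-treated buds at 1 dat (SD, n = 3). At 3 dat their share was 20.2 ± 10.2% in treated and 47.2 ± 4.26% in water-treated buds, and at 6 dat 4.51 ± 1.88% in treated and 33.4 ± 4.85% in water-treated buds. The ranges of treated and water-treated buds did not overlap at any of the 3 time points. The share in untreated buds was 19.8 ± 9.25%. Isoform i10 held 23.9 ± 19.2% in treated and 2.30 ± 1.14% in water-treated buds at 1 dat, 27.7 ± 25.6% in treated and 5.27 ± 3.19% in water-treated buds at 3 dat, and 72.3 ± 4.07% in treated and 15.1 ± 1.71% in water-treated buds at 6 dat. In untreated buds its share was 33.1 ± 6.96%.

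Within treated buds, single libraries showed the isoforms of TR12555|c3_g2 apart. At 3 dat the treated library of tree 5 had the highest level of i10 (21.9 FPKM) and the lowest of i16 (0.000503 FPKM), i3 (1.33 FPKM), i4 (2.12 FPKM) and i21 (10.7 FPKM) of its group. At 1 dat the treated library of tree 5 had the lowest level of i10 (0.828 FPKM) and the highest of i16 (1.36 FPKM), i3 (6.21 FPKM) and i21 (29.2 FPKM). Isoform i4 did not share this pattern, as tree 5 was then its lowest (5.56 FPKM, against 5.81 and 6.12 FPKM in trees 4 and 6). Over the 21 libraries i10 correlated with i3 at r = -0.78 (rho = -0.81), with i16 at r = -0.65 (rho = -0.61) and with i4 at r = -0.65 (rho = -0.61). Isoform i16 correlated with i3 at r = 0.87 (rho = 0.83) and with i4 at r = 0.86 (rho = 0.86). These are descriptions, since the reads that isoforms share were divided between them by estimation and their values are not independent. The effect of that division on single isoforms was not tested.

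**Figure D4:**
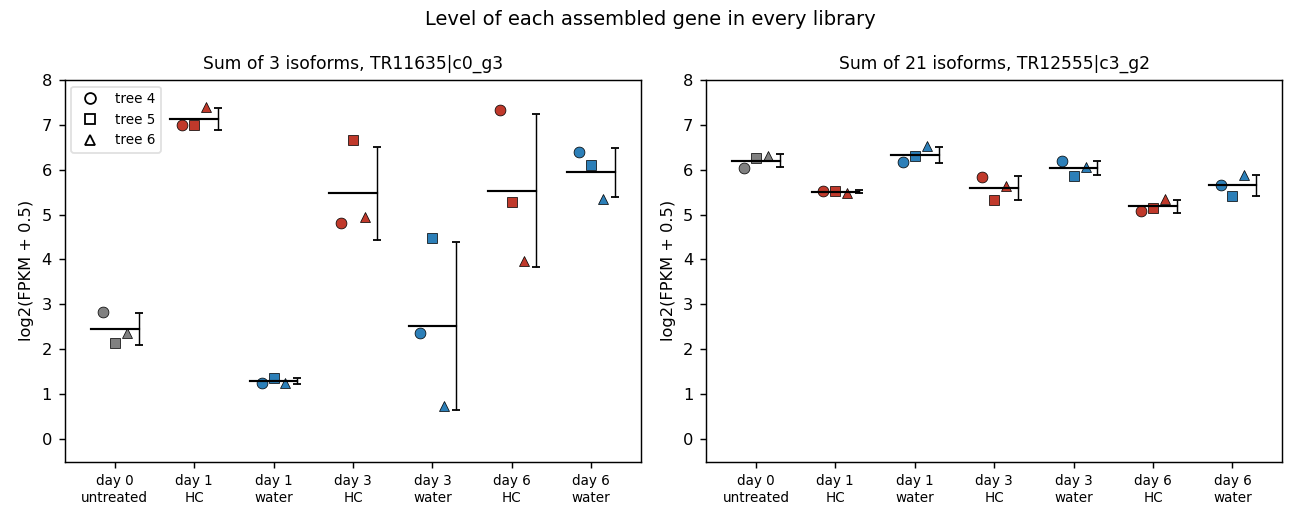
Summed level of all isoforms of TR11635|c0_g3 (left) and TR12555|c3_g2 (right) on a log2(FPKM + 0.5) axis, by group, with symbols for trees 4, 5 and 6 and bars for the mean and SD of the 3 log values. The sum of TR12555|c3_g2 spans 33.1 to 91.2 FPKM, that of TR11635|c0_g3 1.17 to 169 FPKM.

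The sum over isoforms depends on the division of reads within an assembled gene only through differences in isoform length. For TR11635|c0_g3 it was close to i1, with 27.7, 101.1 and 30.2 FPKM in treated and 4.64, 21.7 and 1.17 FPKM in water-treated buds at 3 dat (log2 FC 2.95 ± 0.92 SE, limma adjusted p = 0.0731). With the replicate block this difference was called (adjusted p = 0.0144), as it was without the water-treated library of tree 5 (adjusted p = 0.0205). At 6 dat the sum was at 161, 38.4 and 15.0 FPKM in treated and 83.0, 68.4 and 39.9 FPKM in water-treated buds, and the groups overlapped (log2 FC -0.42 ± 0.77 SE, limma adjusted p = 0.788).

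For TR12555|c3_g2 the sum differed less between treatments than i16, i3 and i4 did. At 1 dat it was 45.1 ± 1.08 FPKM in treated and 80.1 ± 10.2 FPKM in water-treated buds (SD, n = 3), a log2 FC of -0.81, against -3.99 for i16. At 3 dat it was at 56.7, 39.4 and 49.2 FPKM in treated and 72.6, 57.8 and 65.9 FPKM in water-treated buds (log2 FC -0.44 ± 0.15 SE, limma adjusted p = 0.0926). The sum at 6 dat was 33.1, 34.8 and 39.9 FPKM in treated and 49.9, 42.3 and 58.0 FPKM in water-treated buds (log2 FC -0.47 ± 0.14 SE, limma adjusted p = 0.0909). The groups did not overlap at either of these time points, and the sum was lower in treated buds of each tree. Averaged over 3 and 6 dat the log2 FC of -0.45 (0.11 SE, 95% interval -0.69 to -0.22) had an adjusted p of 0.00944 from limma but stayed under the fold threshold of 1. Of all summed assembled genes 6.02% were called at 3 dat, 3.86% at 6 dat and 6.41% in the average.

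Each treatment group was also set against the untreated buds of day 0, which both treatments share. TR11635|c0_g3_i1 was at 5.84, 2.97 and 4.53 FPKM in untreated buds of trees 4, 5 and 6. Against these it was called higher in treated buds at 3 dat (log2 FC 3.10 ± 0.50 SE, adjusted p = 0.00703) and 6 dat (log2 FC 3.15 ± 0.74 SE, adjusted p = 0.0224), and in water-treated buds at 6 dat (log2 FC 3.502 ± 0.32 SE, limma adjusted p = 0.000549). In water-treated buds at 3 dat the log2 FC was 0.08 (0.90 SE, 95% interval -2.02 to 2.18, limma adjusted p = 0.970), and it turned to -0.94 without the water-treated library of tree 5. The call in treated buds at 6 dat was lost in 4 of 6 fits without 1 library (adjusted p up to 0.0699), namely without any of the untreated libraries or without the treated library of tree 5. Isoforms i2 and i3 of the same gene were also called higher in water-treated buds at 6 dat, with log2 FC of 2.38 (0.43 SE, adjusted p = 0.00874) and 2.35 (0.42 SE, limma adjusted p = 0.00896).

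TR12555|c3_g2_i16 was uneven in untreated buds, at 0.00879, 7.17 and 5.10 FPKM. None of its comparisons with day 0 was called. In treated buds the log2 FC was -0.72 ± 1.15 SE at 3 dat (adjusted p = 0.727) and -2.47 ± 0.96 SE at 6 dat (limma adjusted p = 0.111). In water-treated buds it was 1.76 ± 0.997 SE at 3 dat (adjusted p = 0.323) and 0.70 ± 0.97 SE at 6 dat (limma adjusted p = 0.662). Without the treated library of tree 5 the value at 3 dat turned to 0.16. Without the untreated library of tree 4, the log2 FC in treated buds at 6 dat was -3.70 (adjusted p = 0.00317) and that in water-treated buds at 6 dat -0.53 (limma adjusted p = 0.451). In treated buds at 6 dat, i3 (log2 FC -2.72, adjusted p = 0.00374), i4 (log2 FC -1.79, adjusted p = 0.0340), i11 (log2 FC -2.06, adjusted p = 0.00489) and i21 (log2 FC -1.67, limma adjusted p = 0.00128) were called lower than in untreated buds. The call of i4 was lost in 4 of 6 fits without 1 library, those without an untreated library of tree 5 or 6 or a treated one of tree 4 or 5 (with adjusted p of up to 0.113), and without a filter (adjusted p = 0.10002).

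Counted over both assembled genes against day 0, 1 of the 14 isoforms tested was called in treated buds at 3 dat (11.2% of all transcripts tested) and 1 of 14 in water-treated buds at 3 dat (6.1%). At 6 dat 5 of 13 tested were called in treated buds (17.4%) and 4 of 15 in water-treated buds (15.4%). Of the sums, TR11635|c0_g3 was called higher in treated buds at 3 dat (log2 FC 3.03, adjusted p = 0.00307) and 6 dat (log2 FC 3.08, adjusted p = 0.0151, or 0.0519 without the untreated library of tree 5) and in water-treated buds at 6 dat (log2 FC 3.49, limma adjusted p = 0.000148). TR12555|c3_g2 was called lower only in treated buds at 6 dat (log2 FC -1.02 ± 0.12 SE, limma adjusted p = 0.000594), where leaving out single libraries gave log2 FC of -1.10 to -0.96 and 4 of 6 fits, those without an untreated library of tree 5 or 6 or a treated library of tree 4 or 5, put it under the fold threshold. Among all summed assembled genes 17.1% were called in treated buds and 11% in water-treated buds at 3 dat, and 23.8% in treated and 20.7% in water-treated buds at 6 dat. Comparisons with day 0 also span the cutting of the branches, the warm chamber and another time of day, whose effects cannot be told apart from that of time. Rescaling the libraries by median ratios moved the median log2 FC of all transcripts by -0.21 to -0.12 in these comparisons.

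A list of 16 further transcripts of gibberellin inactivation, synthesis and response was taken from the study's tables. Since the study chose these on the same samples, their directions are not independent evidence. The listed TR13585|c3_g1_i22 is named gibberellin 20 oxidase 1-b but also matches an RNA polymerase I transcription factor. It was kept in the list, so its place there is uncertain. Calls of listed transcripts were not checked by leaving out single libraries. Of the 13 tested at 3 dat 3 were called higher and 4 lower (3.01% of all transcripts were called), of the 12 tested at 6 dat 2 were called, both lower (1.41%), and of the 14 tested for the average 3 were called higher and 4 lower (5.23%). The median log2 FC of those tested was 1.15 at 3 dat and 0.13 at 6 dat, against -0.04 and -0.07 over all transcripts. Over all 67 isoforms of the listed assembled genes, of which the study's choice took only a part, the median was 0.11 for the 34 tested at 3 dat, with 4 called higher and 5 lower, and -0.06 for the 32 tested at 6 dat, with 2 called, both lower.

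Among other inactivating enzymes, gibberellin 2-beta-dioxygenase 2-like (TR24673|c0_g1_i2) was at 19.996, 5.30 and 3.93 FPKM in treated and 0.548, 0.350 and 1.01 FPKM in water-treated buds at 6 dat. It was called higher in the average of 3 and 6 dat (log2 FC 2.04 ± 0.44 SE, limma adjusted p = 0.0106). Of a pair of other assembled genes named gibberellin 2-beta-dioxygenase 8-like, TR360|c0_g1_i1 was called higher in the average (log2 FC 1.27 ± 0.27 SE, adjusted p = 0.0104) and TR33041|c0_g1_i6 lower (log2 FC -1.51 ± 0.23 SE, limma adjusted p = 0.00175). TR33041|c0_g1_i6 was also called lower at 3 dat, with 1.44e-07, 0.000278 and 3.94e-10 FPKM in treated and 2.12, 1.19 and 1.69 FPKM in water-treated buds (log2 FC -2.09, limma adjusted p = 0.0244). At 3 dat TR33041|c0_g1_i6 passed the filter on low levels only through water-treated buds. Transcripts named for the same enzyme class were thus called in both directions, within a list that the study chose on the same samples.

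Of synthesis genes, both isoforms of gibberellin 3-beta-dioxygenase 1-like (TR19776|c0_g2_i2 and i3), the enzyme of the last activating step, were called higher at 3 dat. The larger, i2, was at 30.6, 31.7 and 32.5 FPKM in treated and 12.1, 13.3 and 9.26 FPKM in water-treated buds (log2 FC 1.43 ± 0.16 SE, limma adjusted p = 0.00900). At 6 dat neither isoform was called. Isoform i2 then averaged 13.8 FPKM in treated and 17.3 FPKM in water-treated buds, and i3 1.47 FPKM in treated and 3.83 FPKM in water-treated buds. An ent-kaurene synthase-like transcript (TR13658|c4_g4_i1), for an early step, was called higher in the average (log2 FC 1.81 ± 0.44 SE, limma adjusted p = 0.0211).

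Among gibberellin-regulated transcripts, gibberellin-regulated protein 1-like (TR26994|c3_g2_i1) was called lower at 3 dat (log2 FC -2.59, adjusted p = 0.0134) and 6 dat (log2 FC -1.65, limma adjusted p = 0.0458). TR33232|c1_g1_i1, with 487, 453 and 576 FPKM in treated and 1374, 1407 and 880.0 FPKM in water-treated buds at 6 dat, was called lower at both time points as well (log2 FC -1.21 and -1.25, adjusted p = 0.0118 and 0.0263 from limma). Gibberellin-regulated protein 11-like (TR36706|c0_g2_i1) was called lower at 3 dat (log2 FC -2.17, limma adjusted p = 0.0219), and gibberellin-regulated protein 6 (TR10472|c0_g4_i1) was called higher (log2 FC 2.02, limma adjusted p = 0.0468).

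The transcripts of other assembled genes whose pattern over the 21 libraries was most like that of TR11635|c0_g3_i1 were taken from transcripts averaging 1 FPKM or more that have a name in the study's tables. They were a bifunctional riboflavin biosynthesis protein RIBA 1 (TR12120|c1_g1_i1, r = 0.96, rho = 0.95), BON1-associated protein 2-like (TR7804|c0_g2_i1, r = 0.96, rho = 0.96), a hypothetical protein (TR15563|c0_g1_i1, r = 0.95, rho = 0.97), NAC domain-containing protein 2-like (TR12984|c3_g1_i2, r = 0.94, rho = 0.90) and adenine phosphoribosyltransferase 1-like (TR12849|c0_g1_i6, r = 0.94, rho = 0.89). TR12984|c3_g1_i2, for example, averaged 167 FPKM in treated and 8.55 FPKM in water-treated buds at 1 dat, and 99.7 FPKM in treated and 66.4 FPKM in water-treated buds at 6 dat. Of 44957 transcripts compared, named or not, 27 reached r = 0.9. Names were held only for transcripts in tables that the study chose on these same samples. A shared response to treatment was therefore favoured among the named ones.

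For TR12555|c3_g2_i16 the 5 most similar were again taken only from transcripts with a name, with the same limit. The first 3 were heavy metal-associated isoprenylated plant protein 26-like (TR26965|c2_g1_i1, r = 0.88, rho = 0.85), a glutamate receptor-like transcript (TR37861|c2_g2_i5, r = 0.86, rho = 0.88) and gibberellin-regulated protein 11-like (TR36706|c0_g2_i1, r = 0.86, rho = 0.87). Next came dehydration-responsive element-binding protein 3-like (TR20993|c0_g1_i1, r = 0.86, rho = 0.84) and a hypothetical protein (TR26801|c11_g1_i2, r = 0.85, rho = 0.84). Of the same 44957 transcripts, of which 2685 had a name, 3 reached r = 0.9 with i16 (highest r = 0.91). None of these 3 is among the 5 given. TR26965|c2_g1_i1 averaged 21.7 FPKM in treated and 92.3 FPKM in water-treated buds at 1 dat, and 17.8 FPKM in treated and 81.5 FPKM in water-treated buds at 6 dat. These likenesses include the 6 libraries of 1 dat, from which the opposite responses were known, and the 21 libraries share trees and groups.

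Markers of bud tissues were read beside these levels. All were picked by description from the study's tables, whose transcripts the study chose on the same samples. Differences of these markers between treatments are therefore not independent evidence of tissue makeup. The 3 green tissue markers are given above. Of the 4 anther markers 3 had a mean of at least 0.5 FPKM. Their sum was at most 0.133 FPKM in treated buds and 0.286 FPKM in water-treated buds at 1 dat, 3.79 to 8.73 FPKM in treated and 0.0510 to 0.359 FPKM in water-treated buds at 3 dat, and 4.05 to 17.5 FPKM in treated and 2.25 to 5.67 FPKM in water-treated buds at 6 dat. The sum of 2 floral organ markers stayed between 0.909 and 4.39 FPKM in all libraries. The part of a change in tissue makeup in the levels of TR11635|c0_g3 and TR12555|c3_g2 was not tested.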

How the data were processed

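Total RNA of flower buds was used by the authors for stranded mRNA libraries. Reads were trimmed (Trimmomatic 0.33) and assembled *de novo* (Trinity), reads were mapped to the assembly with STAR, and FPKM were estimated per transcript with eXpress 1.5.1, which divides reads shared by isoforms. The table deposited by the authors holds FPKM of 112043 transcripts in 48840 assembled genes without counts, so no counting interval is given. Members and lists were chosen with earlier results of these data known. No test of the members is given at 1 dat, from which their opposite responses were known. The rule named no time point, so tests at the later days may not be independent of the choice either.

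limma 3.58.1 (R 4.3.3) was fitted to log2(FPKM + 0.5), with moderated variances and a trend, for transcripts that averaged 0.5 FPKM or more in the libraries of a comparison. A call needed a Benjamini-Hochberg adjusted p of at most 0.05 over all transcripts tested together with a log2 FC of 1 or more in either direction. Treated and water-treated buds were compared within each day, for the average of 3 and 6 dat and for the difference between these in 1 fit of 12 libraries, and each group with day 0. Isoforms were also summed per assembled gene. Named were the 2 leading transcripts, all isoforms averaging 0.5 FPKM or more (with ranges or single time points for the least abundant), and called transcripts of the gibberellin list. Of transcripts with a name in the study's tables, the 5 most similar to each leading one by Pearson's r were also named. The scripts were tested on simulated data. As alternatives, a pseudocount of 0.1 or 1 FPKM was used, the filter was dropped or raised to 1 FPKM, and the remaining choices were median-ratio rescaling, summed isoforms, all 21 libraries in 1 fit, trees 5 and 6 only at 1 dat, each library left out, and the tree as a replicate block. Per the labels, the biological replicates of each treatment group were branches of trees 4, 5 and 6. The sample titles, also at day 0, end in these numbers. Libraries were therefore paired by tree in the log2 ratios within trees and in the replicate block. All other fits left the tree out. Deviations from group means correlated at -0.015 to 0.059 between libraries of the same tree and day. Further tools were Python 3.11.15, numpy 2.4.6, pandas 2.3.3 and matplotlib 3.10.9.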

Additional observations from a re-analysis of the deposited data

How the results depend on the processing

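Depth is unknown, isoform values rest on estimated read division, and groups of 3 limit precision. With the tree as a replicate block, TR11635|c0_g3_i1 at 3 dat (log2 FC 3.02) and its gene sum (2.95) passed the threshold, TR12555|c3_g2_i16 at 6 dat (-3.17) and isoforms i3 and i4 at 6 dat no longer did, and the block changed no other call of the members or sums. One fit of all 21 libraries lost the calls of TR12555|c3_g2_i10 at 6 dat, in the average and in water-treated buds at 6 dat, and called TR11635|c0_g3_i1 at 3 dat (3.02) and TR12555|c3_g2_i16 in treated buds at 6 dat against day 0 (-2.47). Without a filter TR12555|c3_g2_i16 at 6 dat (-3.17) and TR11635|c0_g3_i1 in treated buds at 6 dat against day 0 (3.15) lost their calls, as did i4 and i21 at 6 dat, i4 in treated buds at 6 dat against day 0, and i10 in the average and in water-treated buds at 3 dat against day 0. With isoforms summed, the value for TR12555|c3_g2_i16 became -0.81 at 1 dat, -0.47 at 6 dat and -0.45 in the average, both below the threshold, -1.02 in treated buds at 6 dat against day 0, now past it, and it reversed to -0.16 and -0.55 in water-treated buds at 3 and 6 dat against day 0. For water-treated buds at 3 dat against day 0, TR11635|c0_g3_i1 reversed to -0.025 with a pseudocount of 0.1 FPKM and to -0.12 after rescaling.

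Without single libraries, TR11635|c0_g3_i1 ranged from 2.00 to 4.04 at 3 dat, from -1.27 to 0.37 at 6 dat, and against day 0 from -0.94 to 1.11 in water-treated buds at 3 dat and from 2.24 to 3.87 in treated buds at 6 dat. Its gene sum ranged from 2.06 to 3.93 at 3 dat, from -1.32 to 0.37 at 6 dat, and against day 0 from -0.90 to 0.97 in water-treated buds at 3 dat and from 2.17 to 3.86 in treated buds at 6 dat. In the average TR11635|c0_g3_i1 ranged from 0.82 to 1.84. TR12555|c3_g2_i16 ranged from -2.97 to -1.60 at 3 dat, from -3.44 to -2.78 at 6 dat and from -1.57 to -0.19 in the difference between days, and against day 0 from -1.95 to 0.16 in treated and 0.54 to 2.49 in water-treated buds at 3 dat, from -3.70 to -1.74 in treated buds at 6 dat and from -0.53 to 1.42 in water-treated buds at 6 dat. The sum of TR12555|c3_g2 ranged from -1.10 to -0.96 in treated buds at 6 dat against day 0, and its difference between days from -0.17 to 0.094. The cause of these changes was not tested.

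The number of transcripts called, here the background, was 2430 at 1 dat and 1257 with trees 5 and 6 only. At 3 dat it was 1904, with 343 without a filter, 3400 with all libraries in 1 fit, 1253 with the replicate block and 343 to 1597 without single libraries. At 6 dat it was 870, with 225, 3061 and 405 under the same settings and 167 to 696 without single libraries. For the difference between days it was 7, with 4 with a pseudocount of 0.1 FPKM or after rescaling, 46 without a filter, 296 in 1 fit, 3 with the block and 4 to 56 without single libraries. In water-treated buds at 3 dat against day 0 it was 3777, with 1982 without a filter, 6031 in 1 fit and 1428 to 3174 without single libraries. In treated buds at 3 dat against day 0 it was 6895, with 4496 to 5834 without single libraries. Rescaling moved the share of higher calls by over 10 points against day 0 at 3 dat (treated 71.1% and 56.4%, water 72.0% and 49.3%) and in water-treated buds at 6 dat (73.2% and 59.2%), and in the 7 called differences between days (14.3% and 25.0%). Isoforms of TR12555|c3_g2 called at 6 dat numbered 5, with 2 without a filter or with the block and 1 to 5 without single libraries. Of the 5 transcripts most similar to TR11635|c0_g3_i1, 1 was shared with the list over group means and 3 with that by rank correlation, and for TR12555|c3_g2_i16 2 with each.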
